A study of Mus musculus with 6 samples.

Results

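The enzymes described here make serine from a glycolytic intermediate and pass its single-carbon unit through folate, and they were followed in muscle cell cultures that lack most Sfpq transcript. The members were chosen by name. They are the serine synthesis enzymes Phgdh, Psat1 and Psph, the mitochondrial folate enzymes Shmt2, Mthfd2, Mthfd2l, Mthfd1l and Aldh1l2, and the cytosolic folate enzymes Shmt1 and Mthfd1. All 10 were found among the 34655 genes of the deposited tables. All 10 were also among the 12460 genes tested, which had at least 1 TPM (a transcript's share of all transcripts in a library, corrected for its length) in at least 3 libraries. The knockout libraries, labelled SFPQ_KO, came from SfpqSM-KO mice, and the controls, labelled Cont, came from control mice, with 3 libraries each. The Sfpq protein binds RNA in the nucleus and acts in transcription and splicing. All libraries were made from polyA RNA of primary myoblasts, taken from the muscle of male mice aged 1 month. In both genotypes the cells were expanded in serum with basic fibroblast growth factor and then kept for 4 days in low horse serum, which makes myoblasts fuse into myotubes. The sources used here do not give the driver of the deletion, the deleted exons or the alleles carried by the controls. The labels count 3 mice per genotype but do not link each library to its own animal, so the p-values cover the spread between these libraries, which may be technical.

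In the serine pathway, 3-phosphoglycerate is taken out of glycolysis by Phgdh, converted by the aminotransferase Psat1 and dephosphorylated by Psph. Serine hydroxymethyltransferases then split serine into glycine and a one-carbon unit bound to tetrahydrofolate. The mitochondrial branch oxidises that unit to formate, which leaves for the cytosol and is used there to build purines, thymidylate and methionine. Several of these genes are known targets of Atf4, the transcription factor of the amino acid response, and Mthfd2 is known as an enzyme of embryonic and proliferating cells that is low in most adult tissue.

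The libraries followed their labels. Sfpq had 18.3, 19.3 and 14.1 TPM in the knockout libraries, against 48.6, 60.5 and 49.9 TPM in the control libraries. Its log2 difference of −1.57 (SE 0.15) had a limma adjusted p of 0.0529. Between 12215 and 12483 genes per library reached 1 TPM. TPM keeps no read depth, and the depth is therefore unknown. The 12 markers of differentiated muscle summed to 69693 to 70175 TPM in knockout and 61593 to 69008 TPM in control libraries, a sum led by Acta1. Of the 12, 7 had higher and 5 lower means in knockout, and 1 was under an unadjusted p of 0.05. That was Myh1, a fast adult myosin, with 2991, 2606 and 2899.9 TPM in knockout, against 8075, 4218 and 6710.4 TPM in control (log2 difference −1.11, limma adjusted p = 0.185). Every knockout library lay below every control library for 1 of the 12, Myh1 (15.3% of all genes tested). Every knockout library lay above for 2 of the 12, Acta1 and Des (4.27% of all genes tested). Des had 6772, 5744 and 7131 TPM in knockout, against 5190, 5082 and 5575 TPM in control. Fibroblast markers were present and are given with the proliferation markers. The 5 endothelial markers summed to at most 0.451 TPM, the 5 macrophage markers to at most 1.46 TPM, the 4 adipocyte markers to at most 0.161 TPM and the 4 Schwann cell markers to at most 1.46 TPM in any library. Emcn, Adgre1 and Ptprc were listed at 0 in all of them.

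All 10 enzymes had lower mean levels in knockout than in control cultures, and none passed the test. The log2 differences ran from −1.04 for Mthfd2 to −0.24 for Psph, with a median of −0.52, where the median of all genes tested was −0.07 and 64.5% of them had a difference below 0. On the log2(TPM + 1) scale used, a difference understates the change of low genes. Over all genes limma with Benjamini-Hochberg adjustment at 0.05 called 0 genes higher and 0 lower (0% each), while 334 were higher and 1199 lower at an unadjusted p under 0.05. With median-of-ratios scaling that split was 787 higher and 662 lower, and with quantile normalization 693 and 679. At that unadjusted threshold 5 of the 10 enzymes (Phgdh, Mthfd1, Mthfd2, Mthfd1l and Mthfd2l) were lower and 0 higher, where 9.62% of all genes tested were lower and 2.68% higher. The 5 became 8 without knockout replicate 2, where 9.99% of all genes were lower, 7 without control replicate 3 (5.3%) and 3 without control replicate 1 (8.5%). It was 4 with median-of-ratios scaling (5.31%) and with quantile normalization (5.45%). A log2 difference at or below the enzymes' median was found for 4.84% of all genes tested. In 3 of the 10, Mthfd2, Mthfd1l and Mthfd2l, every knockout library lay below every control library, which was so for 15.3% of all genes tested, and in 0 of the 10 did every knockout library lie above, which was so for 4.27%. In bulk RNA, fewer cells of a type and less RNA per cell cannot be told apart.

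**Figure D1:**
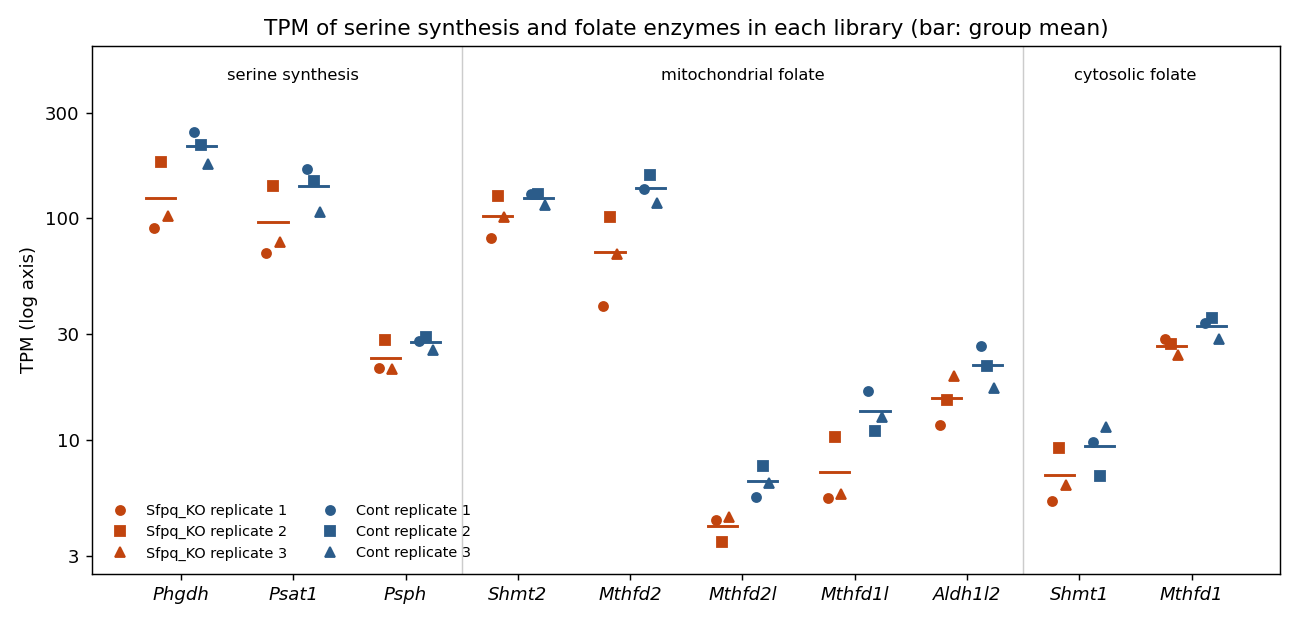
TPM of each enzyme on a log axis in the 3 Sfpq knockout libraries (orange, left) and the 3 control libraries (blue, right), with a bar at each group mean and a symbol for each replicate. Mthfd2, Mthfd2l and Mthfd1l are the enzymes whose groups do not overlap, and knockout replicate 2 is the highest knockout library for 7 of the 10.

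**Figure D2:**
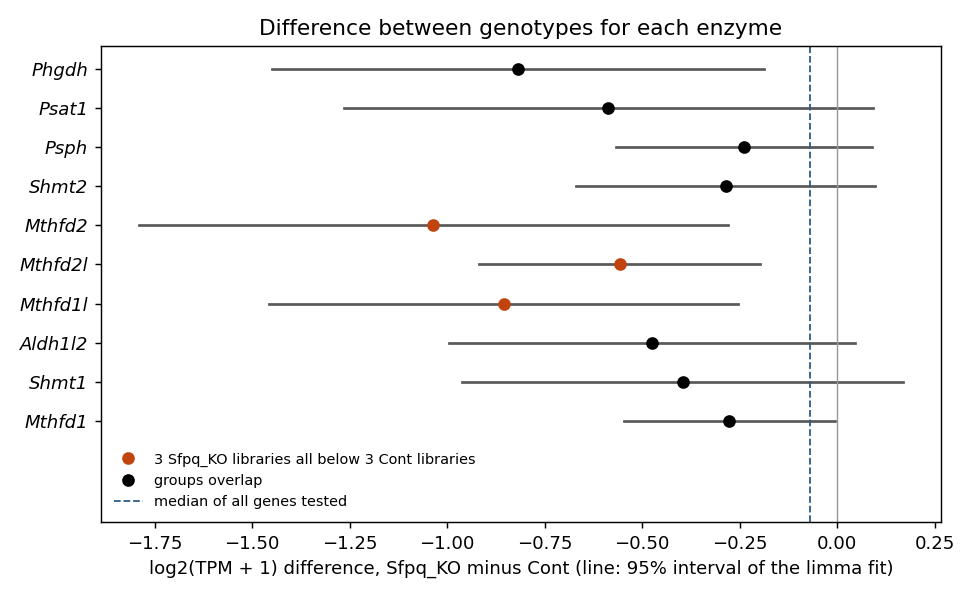
Difference in log2(TPM + 1) between knockout and control for each enzyme, with the 95% interval of the limma fit. Each point lies left of 0, from −0.24 for Psph to −1.04 for Mthfd2, and the dashed line marks the median of all genes tested at −0.07.

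The stretch before the gene start is shown for Phgdh, Psat1 and Mthfd2, which are the high members with the widest differences, and for Asns, the asparagine synthetase gene, as a known Atf4 target for comparison. Each is the 250 bases before a RefSeq start in GRCm38.p6, on the gene's own strand, 5′ to 3′. In the first 3 sequences capitals mark the CCAAT box on either strand, and in Asns they mark the core of the C/EBP-ATF response element, TGATGNAA.
Phgdh, chr3:98339970-98340219, minus strand: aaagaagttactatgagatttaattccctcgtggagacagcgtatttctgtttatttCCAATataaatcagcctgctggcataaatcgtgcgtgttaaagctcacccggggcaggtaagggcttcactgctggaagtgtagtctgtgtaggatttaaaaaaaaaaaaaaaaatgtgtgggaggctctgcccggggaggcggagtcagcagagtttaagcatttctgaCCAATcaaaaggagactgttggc
Psat1, chr19:15925060-15925309, minus strand: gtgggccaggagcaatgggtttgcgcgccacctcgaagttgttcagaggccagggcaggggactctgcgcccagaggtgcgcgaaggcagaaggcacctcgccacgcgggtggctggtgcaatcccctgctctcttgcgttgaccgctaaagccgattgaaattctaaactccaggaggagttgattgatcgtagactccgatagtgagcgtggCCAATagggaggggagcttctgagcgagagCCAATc
Mthfd2, chr6:83317605-83317854, minus strand: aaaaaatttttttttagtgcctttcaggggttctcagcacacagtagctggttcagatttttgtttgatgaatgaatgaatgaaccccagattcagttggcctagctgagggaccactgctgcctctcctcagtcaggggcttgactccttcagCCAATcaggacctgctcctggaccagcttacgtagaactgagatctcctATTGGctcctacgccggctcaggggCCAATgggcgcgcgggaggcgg
Asns, chr6:7693210-7693459, minus strand: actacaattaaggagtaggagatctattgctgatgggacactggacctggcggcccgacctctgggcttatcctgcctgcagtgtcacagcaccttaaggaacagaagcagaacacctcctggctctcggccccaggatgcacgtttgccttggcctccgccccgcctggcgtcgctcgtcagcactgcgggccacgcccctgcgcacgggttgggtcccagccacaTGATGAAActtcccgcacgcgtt
The Phgdh and Psat1 stretches each hold 2 CCAAT boxes and the Mthfd2 stretch holds 3, 1 of them on the other strand. The RefSeq table gave 10 windows for 9 of the enzymes, all but Aldh1l2, and 6 of those windows, of Phgdh, Psat1, Psph, Mthfd2, Shmt1 and Mthfd1, hold CCAAT on either strand. It is in 33.8% of all 32851 windows of 250 bases. The GC box GGGCGG is in 5 of the 10 windows and in 32.7% of all. Another Psat1 window, not printed, holds 0 CCAAT boxes and 1 GC box. The search for these 2 motifs was added after the next 2 gave no match in the enzymes. The response element core is in 0 of the 10 windows and in 3.45% of all, and the E-box CACGTG is in 0 of the 10 and in 6.02% of all. The Mthfd2 start used lies inside the span given for the gene. In Asns the core starts 23 bases before the gene start. These are matches of letters in 1 short window, not sites that were tested.

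Of the serine synthesis enzymes, Phgdh was the most abundant and had the widest difference. Phgdh, which commits 3-phosphoglycerate to serine (chromosome 3, 98313171 to 98339969), had 90.7, 179.7 and 103 TPM in the knockout libraries, against 246, 214 and 176 TPM in the control libraries. Knockout replicates 1 and 3 lay well below the controls, while replicate 2 lay just above the lowest control. The means were 124 ± 48.3 and 212 ± 35.2 TPM (SD, n = 3 each), a ratio of 0.586, and the log2 difference was −0.82 (SE 0.26, limma adjusted p = 0.323). Psat1 (chromosome 19, 15905123 to 15925059) had 69.8, 139 and 78.7 TPM in knockout, against 167, 147 and 107 TPM in control. The same knockout library again reached into the control range. Its means were 96.0 ± 37.9 and 140.3 ± 30.4 TPM, with a log2 difference of −0.59 (SE 0.28, limma adjusted p = 0.454). Psph, which performs the last step (chromosome 5, 129765558 to 129787443), had 21.1, 28.4 and 20.9 TPM in knockout, against 28.2, 29.2 and 25.5 TPM in control. Its groups also overlapped through knockout replicate 2, the means were 23.5 ± 4.25 and 27.6 ± 1.90 TPM, and the log2 difference was −0.24 (95% interval −0.57 to 0.09, limma adjusted p = 0.514).

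The serine enzymes did not differ in equal proportion. Psat1 stood at 0.770, 0.776 and 0.767 times the Phgdh level in the knockout libraries, against 0.676, 0.690 and 0.608 times in the control libraries. Knockout replicate 2 had much more Phgdh than the other knockout libraries but nearly the same ratio of Psat1 to it. For Psph the ratio to Phgdh was 0.232, 0.158 and 0.204 in knockout, against 0.114, 0.137 and 0.145 in control. Both ratios were higher in each knockout library than in each control library. These ratios describe unequal differences between the enzymes and were not tested. How often ratios or sums of other genes separate in this way was not computed, here or for those given below. Summed over the 3 serine enzymes, the level was 182, 347 and 202 TPM in knockout, against 441, 390 and 309 TPM in control.

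In mitochondria, the folate enzymes differed most at Mthfd2 by log2 difference with all 6 libraries. Mthfd1l differed more without knockout replicate 1 (−0.71 against −0.69 for Mthfd2) and without control replicate 2 (−0.98 against −0.93). Mthfd2, the dehydrogenase and cyclohydrolase that oxidises the one-carbon unit (chromosome 6, 83305704 to 83326011), had 40.2, 102 and 69.5 TPM in the knockout libraries, against 136, 158 and 117 TPM in the control libraries. The groups did not overlap, although the knockout libraries themselves spread widely, with replicate 1 lowest and replicate 2 highest. The means were 70.5 ± 30.8 and 137 ± 20.4 TPM (SD, n = 3 each), a ratio of 0.514, and the log2 difference was −1.04 (SE 0.32, 95% interval −1.79 to −0.28, limma adjusted p = 0.306). Its paralog Mthfd2l, which carries the same activities (chromosome 5, 90930873 to 91021368), was the least abundant enzyme. It had 4.37, 3.46 and 4.48 TPM in knockout, against 5.53, 7.64 and 6.42 TPM in control. Here knockout replicate 2 was the lowest library and not the highest, and the groups did not overlap. Its log2 difference of −0.56 (SE 0.15) had the smallest adjusted p of the enzymes, 0.266 in limma.

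Shmt2, the mitochondrial hydroxymethyltransferase that feeds this branch (chromosome 10, 127517123 to 127522444), had 81.3, 126 and 101 TPM in knockout, against 129, 128 and 114 TPM in control. Knockout replicate 2 lay inside the control range, the means were 103 ± 22.5 and 124 ± 8.33 TPM, and the log2 difference was −0.29 (limma adjusted p = 0.505). Mthfd1l, which releases formate at the end of the branch (chromosome 10, 3972892 to 4167081), had 5.49, 10.3 and 5.72 TPM in knockout, against 16.7, 11.0 and 12.8 TPM in control. The groups did not overlap, but knockout replicate 2 came close to control replicate 2. The log2 difference was −0.86 (SE 0.25, limma adjusted p = 0.293). With a span of 194 kb Mthfd1l is the only enzyme here of 100 kb or more. The 1415 tested genes of at least that span had a median log2 difference of −0.14. Aldh1l2, which burns formyl folate to carbon dioxide and yields NADPH (chromosome 10, 83487447 to 83534146), had 11.6, 15.2 and 19.5 TPM in knockout, against 26.5, 21.5 and 17.3 TPM in control. Knockout replicate 3 exceeded the lowest control, and the log2 difference was −0.47 (SE 0.22, limma adjusted p = 0.435). Summed over the 5 mitochondrial enzymes, the level was 143, 257 and 201 TPM in knockout, against 314, 326 and 268 TPM in control, with no overlap.

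Each cytosolic enzyme had a difference within the range of the others and groups that overlapped. The sum of the 2, led by Mthfd1, was 34.0, 36.3 and 30.6 TPM in knockout, against 43.5, 42.4 and 40.1 TPM in control. That sum did not overlap between groups. Shmt1, the cytosolic hydroxymethyltransferase (chromosome 11, 60788897 to 60811265), had 5.30, 9.21 and 6.29 TPM in knockout, against 9.85, 6.90 and 11.5 TPM in control. Only knockout replicate 2 lay inside the control range, and the log2 difference was −0.40 (95% interval −0.96 to 0.17, limma adjusted p = 0.535). Mthfd1, the trifunctional cytosolic enzyme (chromosome 12, 76254406 to 76319820), had 28.7, 27.1 and 24.3 TPM in knockout, against 33.6, 35.5 and 28.6 TPM in control. The groups met where knockout replicate 1 (28.67 TPM) and control replicate 3 (28.63 TPM) were almost equal. The log2 difference was −0.28 (SE 0.11, limma adjusted p = 0.396).

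Within a library, Mthfd2 was lower in knockout against Shmt2 and Mthfd1, while its ratio to Mthfd2l overlapped between groups. The ratio of Mthfd2 to Shmt2 was 0.494, 0.806 and 0.685 in the knockout libraries, against 1.05, 1.23 and 1.02 in the control libraries. The ratio of Mthfd2 to the cytosolic Mthfd1 was 1.40, 3.76 and 2.85 in knockout, against 4.04, 4.44 and 4.09 in control. In both ratios the groups did not overlap. The ratio of mitochondrial Shmt2 to cytosolic Shmt1 was 15.3, 13.7 and 16.1 in knockout, against 13.1, 18.6 and 9.96 in control, and the knockout values lay inside the control range. The ratio of Mthfd2 to Mthfd2l spread most, at 9.20, 29.4 and 15.5 in knockout, against 24.6, 20.6 and 18.2 in control. Its groups overlapped, and knockout replicate 2 was the highest of the 6 libraries. The ratio of Mthfd1l to Mthfd1 was 0.192, 0.381 and 0.235 in knockout, against 0.496, 0.310 and 0.446 in control, and also overlapped. Ratios within a library do not change with its scaling.

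**Figure D3:**
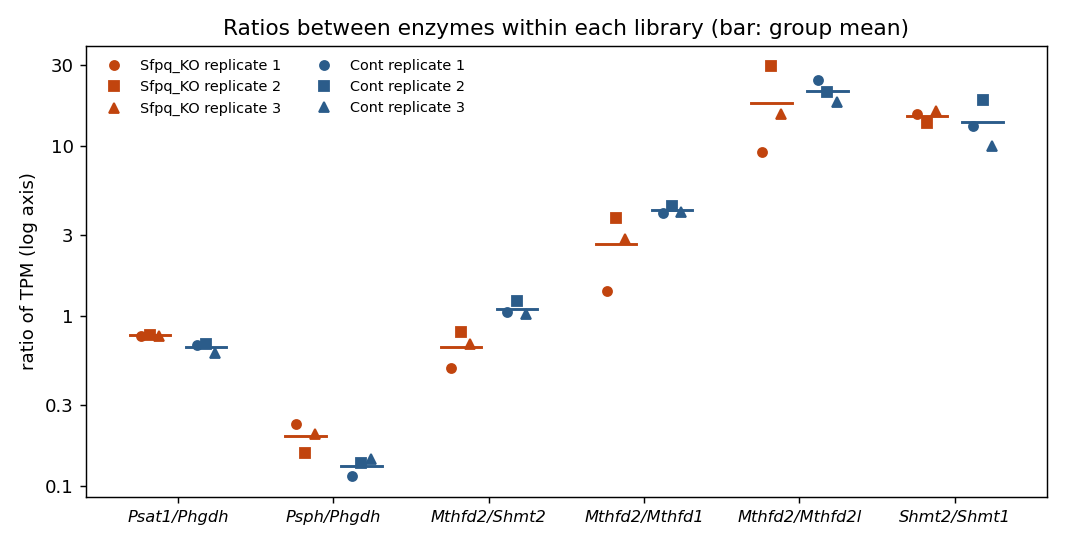
Ratios of TPM between enzymes within each library, on a log axis, for Sfpq knockout (orange, left) and control (blue, right), with a bar at the group mean. Psat1 to Phgdh and Psph to Phgdh are higher, and Mthfd2 to Shmt2 and Mthfd2 to Mthfd1 lower, in each knockout library than in each control library, while Mthfd2 to Mthfd2l and Shmt2 to Shmt1 overlap.

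The enzymes kept nearly the same order by TPM in both genotypes. In knockout the order was Phgdh, Shmt2, Psat1, Mthfd2, Mthfd1, Psph, Aldh1l2, Mthfd1l, Shmt1 and Mthfd2l. In control it was Phgdh, Psat1, Mthfd2, Shmt2, Mthfd1, Psph, Aldh1l2, Mthfd1l, Shmt1 and Mthfd2l. Neighbours did not overlap in either genotype at 2 places, between the first 4 and Mthfd1 and between Aldh1l2 and Mthfd1l. Within the first 4 of the knockout order each overlapped the next, and in control Phgdh alone stood clear of the next. Mthfd1 and Psph overlapped in both genotypes, as did Mthfd1l and Shmt1.

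The knockout libraries differed among themselves, and replicate 2 stood nearest to the controls. Taken from the mean of the control libraries, the median of the 10 enzymes in log2(TPM + 1) was −0.76 in knockout replicate 1, −0.24 in replicate 2 and −0.47 in replicate 3, against 0.07, 0.07 and −0.14 in the control libraries. Knockout replicate 2 was the highest of the 3 knockout libraries for 7 of the 10 enzymes, and replicate 1 the lowest for 7. Among all genes tested replicate 2 was highest for 35.8% and replicate 1 lowest for 29%. The exceptions to the first were Mthfd2l, Aldh1l2 and Mthfd1. Knockout replicates 1 and 3 both lay below every control library for 8 of the 10 enzymes, where 24.3% of all genes tested did. Without knockout replicate 2 the log2 difference of Phgdh was −1.11 (limma adjusted p = 0.121), that of Mthfd2 −1.35 (adjusted p = 0.170) and that of Psat1 −0.89 (adjusted p = 0.207). Without knockout replicate 1 they were −0.63, −0.69 and −0.39, while Mthfd1l stood at −0.71 and Shmt2 at −0.13. In neither case did an enzyme pass, and each remained lower in knockout.

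Atf4 and its targets, like other lists given below, had the same order of the knockout libraries by median, but not of the control libraries. In a list of 22 such genes with none of the enzymes in it, 21 were tested and 0 passed in limma. All 21 had a log2 difference below 0, with a median of −0.36. Gdf15, named for its direction, still had a higher mean TPM in knockout (19.3 ± 18.9 TPM) than in control (16.7 ± 6.49 TPM). The median of the 21 from the control mean was −0.82, 0.06 and −0.42 in knockout replicates 1 to 3, against 0.18, −0.14 and 0.01 in the control libraries. Of the 21, knockout replicate 2 was the highest knockout library for 20. At an unadjusted limma p under 0.05, 4 of the 21 were lower (9.62% of all genes tested). Every knockout library lay below every control library for 4 of the 21, Atf4, Aldh18a1, Vldlr and Asns (15.3% of all genes tested). The groups of the other tested genes overlapped, Ddit3, Chac1 and Slc7a5 among them. Atf4 itself had 283, 395 and 343 TPM in knockout, against 419, 443 and 437 TPM in control, with no overlap (log2 difference −0.36, limma adjusted p = 0.353). Aldh18a1, which starts proline synthesis, had 19.9, 48.3 and 29.0 TPM in knockout, against 53.0, 50.6 and 50.2 TPM in control. Vldlr, a lipoprotein receptor, had 7.58, 13.7 and 10.9 TPM in knockout, against 24.3, 16.6 and 26.4 TPM in control (log2 difference −1.01, limma adjusted p = 0.232). For Asns, whose upstream stretch is printed above, the values were 95.5, 198 and 175 TPM in knockout, against 219, 234 and 199 TPM in control. Asns, like the next gene, was picked for its known link to Atf4 and after its values were seen. Trib3, a pseudokinase induced by Atf4, had 6.16, 41.1 and 10.7 TPM in knockout, against 41.7, 11.3 and 34.4 TPM in control. Of the stress kinases and growth regulators listed with them, 5 of 6 were lower and 0 passed, and the double-stranded RNA kinase Eif2ak2 averaged 2.63 ± 0.228 TPM in knockout cultures and 3.34 ± 0.271 TPM in control cultures. The endoplasmic reticulum stress kinase Eif2ak3 averaged 3.93 ± 0.333 TPM in knockout cultures and 4.76 ± 1.15 TPM in control cultures, and the growth regulator Myc averaged 21.1 ± 5.88 TPM in knockout cultures and 25.1 ± 4.93 TPM in control cultures.

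Markers of dividing cells also had lower means in knockout. Of 16 proliferation markers 15 were tested, and all 15 had lower means in knockout, with a median log2 difference of −0.69 and 0 past the test. Their summed TPM was 73.7, 99.6 and 84.2 in knockout, against 119, 124 and 110 in control, and their median from the control mean was −1.05, −0.27 and −0.69 in knockout replicates 1 to 3. The order of the knockout libraries was therefore the same as for the enzymes. It was also that of lower glycolysis (−0.24, −0.14 and −0.22) and of purine and thymidylate synthesis (−0.25, −0.12 and −0.24), with medians nearer to control. The differentiated muscle markers had the reverse order (0.19, 0.06 and 0.12). Over all genes tested the medians were −0.05, −0.07 and −0.08. The 4 myoblast markers found summed to 889 to 988 TPM in knockout and to 576 to 1007 TPM in control, a sum led by Myod1 and Cdh15, whose means were higher in knockout. The other two had lower means. Myf5 had 17.4, 36.0 and 17.1 TPM in knockout, against 39.9, 33.2 and 35.4 TPM in control (limma adjusted p = 0.394), with a high replicate 2, and Pax7 had 13.9, 16.4 and 11.5 TPM in knockout, against 15.2, 19.6 and 20.4 TPM in control (limma adjusted p = 0.420). The 8 fibroblast markers summed to 155 to 217 TPM in knockout and to 197 to 296 TPM in control, nearly all from the collagens Col3a1 and Col1a1. Col1a1 had 11.1, 24.9 and 11.6 TPM in knockout, against 30.3, 35.9 and 75.9 TPM in control, with no overlap (log2 difference −1.50, limma adjusted p = 0.271). Pdgfra, too low for the test, had 0.527, 0.710 and 0.588 TPM in knockout, against 1.41, 0.719 and 1.08 TPM in control. Its groups also did not overlap. The groups of Col3a1, Col1a2, Dcn, Thy1 and Lum did overlap. Col3a1 had 152, 188 and 141 TPM in knockout, against 160, 246 and 210 TPM in control. Of the 3 fibroblast markers tested, every knockout library lay below every control library for 1, Col1a1 (15.3% of all genes tested). Among the fibroblast markers Tcf21 was listed at 0 in all libraries, and Lum was at most 0.0217 TPM in any library. These markers, and Myh1, Acta1 and Des, are named after their values were seen. The part of dividing cells, of myoblasts, of fibroblasts and of Atf4 in the differences of the enzymes was not tested.

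**Figure D4:**
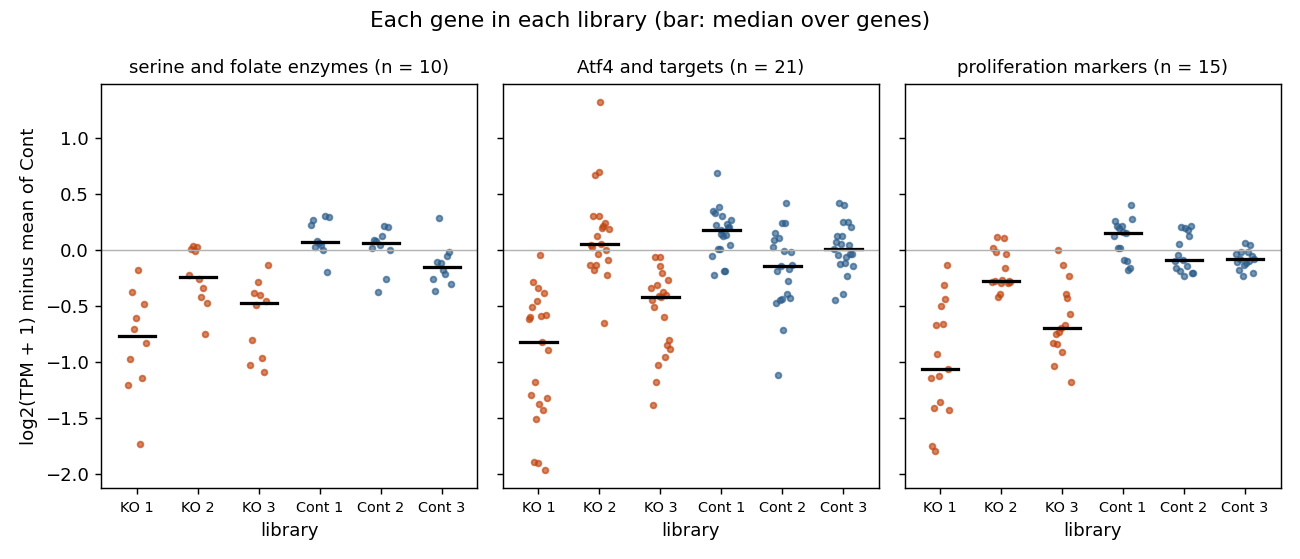
Each tested gene of 3 lists in each library, as log2(TPM + 1) minus the mean of the control libraries, with a bar at the median over genes. For the 10 enzymes, the 21 Atf4 genes and the 15 proliferation markers the median is lowest in knockout replicate 1 (−0.76, −0.82 and −1.05) and highest of the knockout libraries in replicate 2 (−0.24, 0.06 and −0.27).

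The rest of folate metabolism had a median difference nearer to that of all genes. Of 15 other folate enzymes and carriers 13 were tested, 10 were lower and 3 higher in knockout, with a median log2 difference of −0.12 and 0 past the test in limma. Mthfs, which recovers formyl folate, had 2.96, 4.41 and 4.17 TPM in knockout, against 6.68, 5.01 and 5.95 TPM in control, and its groups did not overlap. Slc19a1, the reduced folate carrier, averaged 11.9 ± 1.61 TPM in knockout cultures and 14.6 ± 1.48 TPM in control cultures (SD, n = 3 each, as for the means that follow). Among the glycine cleavage genes 3 of 4 were lower, with a median of −0.06. Dld, the dehydrogenase that this system shares with pyruvate dehydrogenase, averaged 84.2 ± 3.61 TPM in knockout cultures and 105 ± 10.8 TPM in control cultures. Gldc, which decarboxylates glycine, averaged 1.69 ± 0.780 TPM in knockout cultures and 2.11 ± 1.79 TPM in control cultures, and Amt, which hands the one-carbon unit to folate, averaged 2.00 ± 0.479 TPM in knockout cultures and 1.67 ± 0.166 TPM in control cultures.

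In glycolysis, on both sides of 3-phosphoglycerate, 6 of 7 listed genes were lower, with a median of −0.21. Pgk1, which makes 3-phosphoglycerate, had 498, 775 and 569 TPM in knockout, against 1145, 627 and 1038 TPM in control, so its groups overlapped. Gapdh averaged 8618 ± 938 TPM in knockout cultures and 10434 ± 843 TPM in control cultures, and the muscle enolase Eno3 averaged 3551 ± 725 TPM in knockout cultures and 4346 ± 262 TPM in control cultures. None passed in limma, and the smallest adjusted p among the 7 was 0.427.

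Downstream, in purine and thymidylate synthesis 14 of 15 tested genes were lower, with a median log2 difference of −0.13 and 0 passing in limma. Gmps, which makes GMP, averaged 13.3 ± 0.204 TPM in knockout cultures and 16.4 ± 0.881 TPM in control cultures, and Pfas, an enzyme of the purine ring, averaged 4.75 ± 0.679 TPM in knockout cultures and 6.03 ± 0.155 TPM in control cultures. Rrm1, a ribonucleotide reductase subunit, averaged 18.2 ± 0.904 TPM in knockout cultures and 26.5 ± 6.83 TPM in control cultures. In the methionine cycle 7 of 8 tested genes were lower, with a median of −0.22. Ahcyl2, a relative of the homocysteine-forming hydrolase, had 5.90, 7.58 and 6.80 TPM in knockout, against 11.6, 14.2 and 11.6 TPM in control. Its groups stood well apart, and its log2 difference of −0.80 (SE 0.13) had a limma adjusted p of 0.126. Mat2b, a subunit of the enzyme that makes S-adenosylmethionine, averaged 57.6 ± 0.963 TPM in knockout cultures and 68.7 ± 7.81 TPM in control cultures, and methionine synthase, Mtr, had a ratio of knockout to control of 0.754 with overlapping groups.

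For serine uptake and use 10 of 13 tested genes had a log2 difference below 0, with a median of −0.11. Among these 10, Cth, named for its direction, had a higher mean TPM in knockout (2.28 ± 1.65 TPM) than in control (2.14 ± 0.859 TPM). The serine carrier Slc1a4 averaged 9.46 ± 2.10 TPM in knockout cultures and 12.1 ± 2.50 TPM in control cultures, and the serine racemase Srr averaged 24.6 ± 4.51 TPM in knockout cultures and 29.1 ± 4.94 TPM in control cultures. Sptlc2, which joins serine to palmitate, averaged 4.12 ± 0.124 TPM in knockout cultures and 4.92 ± 0.948 TPM in control cultures. In glutathione synthesis the genes went both ways. Gclm and Gclc, the subunits of the first enzyme, had ratios of knockout to control of 0.770 and 0.756, while glutathione synthetase, Gss, had 148, 90.3 and 104 TPM in knockout, against 68.4, 96.5 and 81.4 TPM in control. None of these genes passed in limma, and the smallest adjusted p was 0.381.

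The genes most like Phgdh and Mthfd2 over the 6 libraries were sought among 9574 other genes with a mean of at least 5 TPM, by the root mean square distance of their centred log2(TPM + 1) values. For Phgdh they were Ssc5d (0.117), Tdrkh (0.133) and Car2 (0.136), and among the enzymes Psat1 stood as near, at a distance of 0.128, and Mthfd1l at 0.153. For Mthfd2 they were Otoa (0.162), D17H6S56E-5 (0.163) and Plagl1 (0.169), and the nearest enzyme was Phgdh at 0.239. Ssc5d, the nearest to Phgdh, had 6.67, 11.2 and 7.03 TPM in knockout, against 15.9, 13.6 and 11.5 TPM in control.

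Each enzyme was represented by 1 RefSeq accession, so forms from different promoters or splice sites could not be told apart. In GENCODE M21 the spans of Shmt2 and Aldh1l2 overlap protein-coding neighbours of the other strand, Ndufa4l2 and D10Wsu102e. The span of Psph overlaps Cct6a, a chaperonin subunit gene on the other strand that this release types as a processed transcript. Those of Shmt1, Mthfd1, Mthfd2 and Mthfd1l overlap noncoding entries. The sources used here do not say whether counting used the strand, so these values may include reads of the partner.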

How the data were processed

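The authors deposited TPM values, 1 per RefSeq transcript accession and library, from which read depth cannot be had. STAR 2.4.1d and mm10 are named in the submitters' processing notes. The sources used here do not give the counting tool or annotation release. Groups were taken from the titles. Of 34671 accessions, 30824 were named through a RefSeq table of GRCm38.p6 and 103 through GENCODE M21, and TPM was summed per symbol. The other 3744 held at most 1.27% of TPM and kept their accession.

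Genes with at least 1 TPM in at least 3 libraries entered a limma fit (limma 3.58.1, R 4.3.3) of log2(TPM + 1), with trend, genotype alone, a 2-sided moderated test and Benjamini-Hochberg adjustment over all genes. The fit was also run on simulated data, drawn with the means and spread of the main fit of these libraries. Python 3.11.15 was used for the rest.

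The members and lists were chosen with earlier results of these data known. From each pathway list the 3 genes with the smallest p are named, other genes where said. A result that this rule would name is not reported here. The markers Itga7 and Adss2 had no symbol in the tables (the older name Adss did). Alternatives covered the pseudocount, the filter, scaling, moderation, a replicate block, the accession used and each library left out.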

Additional observations from a re-analysis of the deposited data

How the results depend on the processing

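No enzyme passed and each remained lower in knockout under the 16 alternatives run on the enzymes, with a smallest adjusted p of 0.121 (Phgdh without Sfpq_KO replicate 2). The median of the 10 enzymes was −0.44 after median-of-ratios scaling, −0.43 after quantile normalization, −0.36 with a pseudocount of 5 and −0.59 to −0.36 with each library left out. Over all genes the counts called higher and lower were 2 and 11 with a pseudocount of 5, 1 and 6 with a mean TPM of at least 5, 1 and 1 without trend and 7 and 21 at an adjusted p under 0.1. They were 0 and 0 with each library left out. At an unadjusted p under 0.05 the counts were 787 and 662 after median-of-ratios scaling, 693 and 679 after quantile normalization, and 563 and 1676 without a filter, where 22395 genes were tested and not 12460. Leaving out each library gave 209 to 615 higher and 651 to 1266 lower. The cause was not tested. Same-numbered libraries did not pair: their deviations correlated at −0.26, −0.25 and 0.05 over 12460 genes. With the replicate block 0 genes were called, 224 were higher and 836 lower at an unadjusted p under 0.05, and the enzymes' adjusted p began at 0.445. Summing accessions changed no enzyme, since each has 1. TPM gives no depth, so no counting limit can be stated for the low enzymes.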

Other observations

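Some genes next to the pathway were too low for the test or differed in direction, and are given as values, picked after they were seen. Folr2, a folate receptor of macrophages and placenta, had 0.723, 0.271 and 0.512 TPM in knockout, against 0.0423, 0.0836 and 0.137 TPM in control. The 5 macrophage markers summed to 0.507 to 1.46 TPM in knockout and to 0.810 to 1.35 TPM in control. Of them, Adgre1 and Ptprc were listed at 0 in all libraries. Cd68 averaged 0.898 ± 0.502 TPM in knockout and 0.826 ± 0.364 TPM in control. Sdsl, a serine dehydratase-like enzyme, had 0.251, 0.758 and 0.211 TPM in knockout, against 2.13, 0.745 and 1.89 TPM in control. Eno2, the neuronal enolase, was the 1 glycolytic gene of its list with a higher mean in knockout, at 7.00, 13.4 and 5.30 TPM in knockout, against 3.31, 4.01 and 8.84 TPM in control. The enzymes that remethylate homocysteine with betaine, Bhmt and Bhmt2, the liver gene Mat1a and the serine dehydratase Sds were listed at 0 in all 6 libraries.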
